A study of Homo sapiens with 6 samples.

Results

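The 9 genes described here encode 5 ligands of the epidermal growth factor (EGF) family, AREG, EREG, TGFA, HBEGF and BTC, and the 4 ERBB receptors, EGFR, ERBB2, ERBB3 and ERBB4. They were taken by symbol from the 20332 genes of the count table. AREG and EREG had been named as higher in earlier results of the same comparison, so the fold changes of the 9 genes are given as a description, with no p-value. Each gene matched 1 row. All samples were of Huh-7, a human hepatocellular carcinoma line, with stable RAC3 overexpression (3 samples, called RAC3 cells) or as the negative control, labelled wild type (3 samples, called control cells). The overexpressing line was made with a lentivirus that carried RAC3, a small GTPase, and whether it was 1 clone or a mixed population is not given in the sources used here. The genotype labels of RAC3 samples 2 and 3 name RAC4 and RAC5, while the titles of all 3 name RAC3. The transgene's own gene, RAC3, had 497, 471 and 588 counts in control cells and 4134, 3946 and 3178 in RAC3 cells. Total counts lay between 13855762 and 18199888 per sample. The study's methods call the RNA samples independent, and neither they nor the labels name separate cultures. The errors and p-values measure the spread between these samples, which may be technical.

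EGF family ligands are made as membrane-bound precursors and are released by metalloproteases, mainly ADAM17 and ADAM10. A released ligand binds the outer part of an ERBB receptor, the receptors pair, and the paired kinases start signalling through RAS and ERK, PI3K and STAT proteins. Amphiregulin (AREG), transforming growth factor alpha (TGFA), epiregulin (EREG), heparin-binding EGF (HBEGF) and betacellulin (BTC) all bind EGFR, and the last 3 also bind ERBB4. ERBB2 has no known ligand and acts as a partner of the other receptors, and ERBB3 has a weak kinase and binds neuregulins. In the liver, EGFR signalling is known for its part in regeneration, and amphiregulin is induced by liver injury.

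AREG and EREG were the members with higher transcript levels in RAC3 overexpression past the thresholds of the study, and they lie on the same strand of chromosome 4, with the EREG start at -80.0 kb from the AREG start. The bases before their starts are shown because these genes moved together. They are the 250 bases upstream of the RefSeq start on GRCh38.p14, plus strand, chr4:74444886-74445135 for AREG and chr4:74364895-74365144 for EREG, with motif matches in capitals.
AREG: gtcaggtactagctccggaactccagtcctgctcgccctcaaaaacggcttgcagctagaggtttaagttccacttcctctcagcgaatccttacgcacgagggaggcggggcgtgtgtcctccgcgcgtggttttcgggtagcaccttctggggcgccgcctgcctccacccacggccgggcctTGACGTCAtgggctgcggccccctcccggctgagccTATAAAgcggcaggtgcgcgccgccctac
EREG: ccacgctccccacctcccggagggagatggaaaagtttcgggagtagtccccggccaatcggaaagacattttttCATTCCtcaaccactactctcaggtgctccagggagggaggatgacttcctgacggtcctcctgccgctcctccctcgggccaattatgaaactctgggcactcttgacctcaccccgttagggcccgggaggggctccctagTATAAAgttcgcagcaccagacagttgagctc
The motifs searched on both strands were the cAMP response element TGACGTCA, the AP-1 site TGANTCA, the TATA box TATAAA, the TEAD site GGAATG, the SOX core AACAAT and the hypoxia response core ACGTG. In the AREG window the cAMP response element began 65 bases before the start and a TATA box began 29 bases before it. In the EREG window a TATA box began 32 bases before the start, and a TEAD site on the minus strand, printed as CATTCC, began 175 bases before it. Neither window held an AP-1 site, a SOX core or a hypoxia response core. The EREG window held no cAMP response element and the AREG window no TEAD site. TATAAA was found in 10.7% of the 35116 RefSeq windows of this length, TGACGTCA in 1.65%, both in 0.142%, and GGAATG in 11.9%. RefSeq windows were matched for 8 of the 9 members, all but ERBB3. No TATAAA was found in the windows of TGFA, HBEGF, BTC, ERBB2 and ERBB4 or in the first EGFR window, while a second EGFR window held TATAAA at 2 positions. That second window also held AP-1 sites and a TEAD site. The ERBB2 window held an AP-1 site and the ERBB4 window a SOX core. These matches describe letters only.

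AREG encodes amphiregulin (ENSG00000109321, chromosome 4 from 74445134 to 74455009 in GENCODE release 29 on GRCh38). It had 607, 649 and 907 counts in control cells and 1229, 1159 and 943 counts with RAC3 overexpression. Scaled by TMM to a common library total (CPM), these were 43.5, 43.2 and 50.6 CPM against 69.2, 70.4 and 66.9 CPM. The groups did not overlap, and control 3 was the highest of its group. In bulk RNA, more cells that express a gene and more RNA per cell cannot be told apart, nor can fewer cells and less RNA per cell. The means were 45.8 ± 4.17 and 68.8 ± 1.77 CPM (SD, n = 3 per group), a fold change of 1.50 and a log2 fold change of 0.59 (standard error, SE, 0.0671, 95% interval 0.45 to 0.73). The study called a gene differentially expressed at a fold change above 1.5 with an unadjusted p-value below 0.05, and AREG lay on that fold threshold. It was past it in 8 of 15 alternative fits and below it in 7: both other filters on low counts, the removal of the GC trend, and 4 fits without 1 sample, with log2 fold changes of 0.55 without control 1, 0.54 without control 2, 0.58 without RAC3 sample 1 and 0.57 without RAC3 sample 2.

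EREG encodes epiregulin (ENSG00000124882, chromosome 4 from 74365143 to 74388751). Its counts were 429, 440 and 551 in control cells and 874, 893 and 774 in RAC3 cells. On the CPM scale it had 30.7, 29.3 and 30.7 in control cells and 49.2, 54.2 and 54.9 in RAC3 cells. All RAC3 samples were above all control samples. The means were 30.3 ± 0.824 and 52.8 ± 3.12 CPM (SD, n = 3 per group). The log2 fold change was 0.80 (SE 0.0694, 95% interval 0.66 to 0.95), a 1.74-fold higher level. It was past the thresholds in all 15 alternative fits. By fold change EREG was number 144 and AREG number 313 from the top of the 12941 genes tested.

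The other ligands were scarce, and none of them was past the thresholds. HBEGF, whose product binds heparan sulfate, had 3.94, 3.53 and 2.73 CPM in control cells and 3.996, 4.49 and 3.97 CPM in RAC3 cells. All RAC3 samples lay above all control samples in HBEGF, by 0.0318 CPM at the closest pair, on 49 to 74 counts per sample. Its log2 fold change was 0.30 (SE 0.214, 95% interval -0.15 to 0.75), and it ranged from 0.15 to 0.41 when 1 sample was left out. BTC, the betacellulin gene, had 26, 44 and 65 counts in control cells and 53, 39 and 36 counts in RAC3 cells, and the groups overlapped. Its log2 fold change of -0.10 had a 95% interval from -0.66 to 0.46 and took either sign when 1 sample was left out (-0.32 to 0.13). TGFA had 2, 0 and 10 counts in control cells and 4, 2 and 3 in RAC3 cells. It did not pass the filter on low counts, and a difference was not detectable at this depth, where a count of 0 in control 2 allows up to 0.200 CPM.

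**Figure D1:**
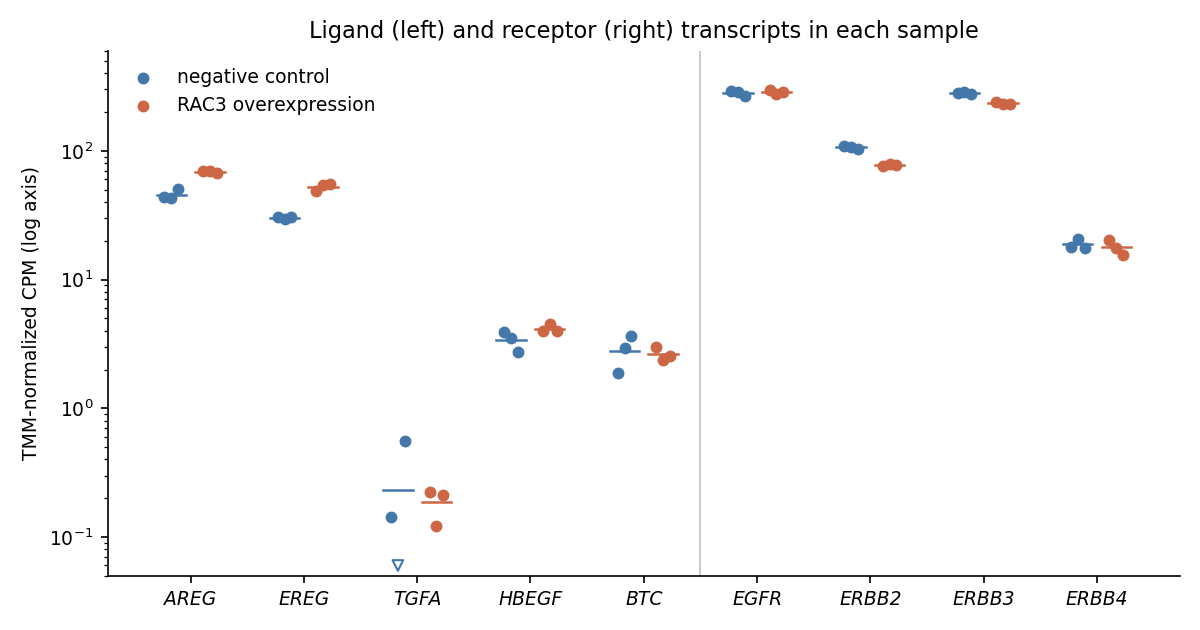
TMM-normalized CPM (log axis) of the 9 genes in each sample, with a line at each group mean and an open triangle at the bottom for the TGFA count of 0. AREG and EREG of RAC3 cells sit above those of control cells, ERBB2 and ERBB3 below them, and EGFR and ERBB4 overlap between the groups.

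Of the receptors, ERBB2 and ERBB3 had lower levels in RAC3 cells and EGFR and ERBB4 overlapped between the groups. ERBB2, the receptor without a known ligand (ENSG00000141736, chromosome 17 from 39687914 to 39730426), had 109.1, 107.2 and 103.7 CPM in control cells and 76.7, 78.9 and 78.0 CPM in RAC3 cells. The mean went from 106.6 ± 2.76 to 77.8 ± 1.09 CPM (SD, n = 3 per group), and the gap between the groups was wider than the range within either. The log2 fold change was -0.45 (SE 0.0519, 95% interval -0.56 to -0.35), which is 0.730 of the control level and inside the fold threshold. ERBB3, the neuregulin receptor that couples to PI3K (ENSG00000065361, chromosome 12 from 56076799 to 56103505), had 281.0, 289.0 and 278.5 CPM in control cells against 238.0, 232.0 and 232.2 CPM. The groups did not overlap. Its log2 fold change was -0.27 (SE 0.0412, 95% interval -0.36 to -0.19).

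EGFR, the receptor that all 5 ligands bind (ENSG00000146648, chromosome 7 from 55019021 to 55211628), had 292.9, 288.0 and 265.9 CPM in control cells and 297.4, 278.4 and 288.8 CPM in RAC3 cells. The groups overlapped, and the log2 fold change was 0.03 (SE 0.0457) with a 95% interval from -0.06 to 0.13. This interval leaves room for a change of up to 0.13 on the log2 scale and not for the thresholds of the study. ERBB4, which binds neuregulins and several EGFR ligands, had 17.8, 20.7 and 17.7 CPM in control cells and 20.2, 17.6 and 15.5 CPM in RAC3 cells. Its log2 fold change was -0.07 (SE 0.107, 95% interval -0.29 to 0.15), with overlapping groups.

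At the thresholds of the study, 2 of the 8 members tested were higher and none was lower, while 4.68% of all genes tested were called, 1.68% higher and 2.99% lower. With the adjusted p-value in place of the unadjusted one, the same 2 members were called, against 3.55% of all genes tested, 1.17% higher and 2.39% lower. At an adjusted p-value below 0.05 in edgeR's quasi-likelihood test without a fold threshold, 4 of the 8 members were called, 2 higher (AREG and EREG) and 2 lower (ERBB2 and ERBB3), against 28.5% of all genes tested, 1717 of them higher and 1974 lower. The groups did not overlap for 5 of the 8 members, 3 higher and 2 lower, where 42.5% of all genes tested did not overlap, 20.9% higher and 21.6% lower. Nothing is read from these counts, since the members were chosen on this comparison. No 3 samples against 3 can give an exact permutation p under 0.10. The median log2 fold change was 0.44 over the 4 ligands tested, -0.17 over the 4 receptors and 0.00 over all genes tested. AREG and EREG, known to be higher when the members were chosen, enter the ligand median. Nothing is read from these medians either.

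**Figure D2:**
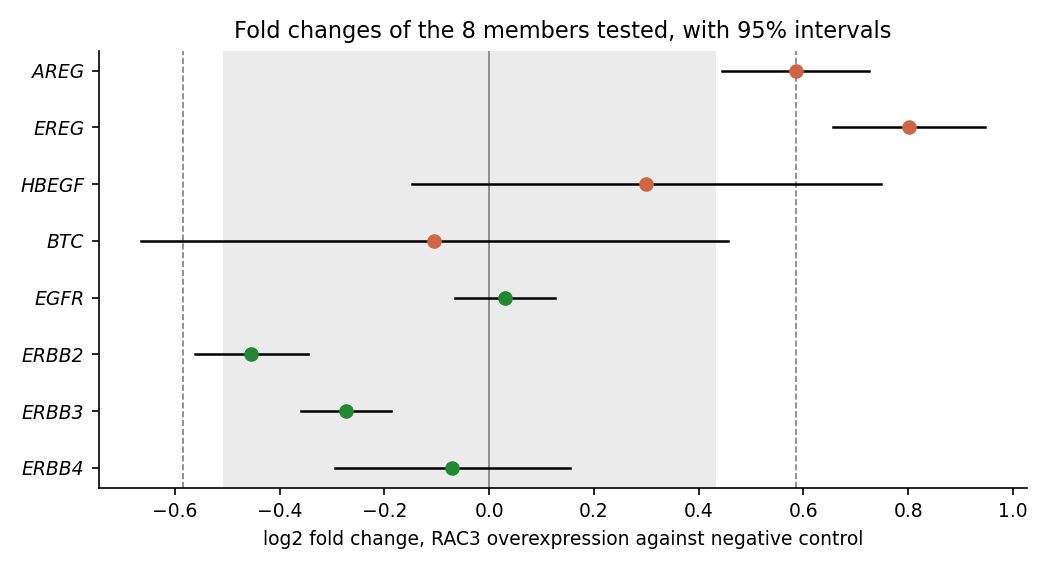
Log2 fold change of the 8 genes tested (points, ligands in orange and receptors in green) with 95% intervals from the edgeR fit. Dashed lines mark a fold change of 1.5 in either direction and the grey band holds the middle of all genes tested, from the percentile 5 at -0.51 to the percentile 95 at 0.43. AREG and EREG lie to the right of the band, and the other 6 points lie inside it.

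GC content and read sharing were looked at beside these values. The longest annotated transcript has 36.1% GC for EREG and 45.3% for AREG, against 57.5% for ERBB2 and 52.0% for ERBB3. For ERBB4, BTC, EGFR and HBEGF it has 39.6%, 40.2%, 47.5% and 50.9%. ERBB4 and BTC thus have less GC than AREG, with log2 fold changes of -0.07 and -0.10. With the GC trend of every library removed, log2 fold changes were 0.63 for EREG, 0.53 for AREG, -0.32 for ERBB2 and -0.22 for ERBB3. AREG was no longer past the fold threshold. HBEGF, EGFR, BTC and ERBB4 had 0.34, 0.01, -0.23 and -0.21 in that fit. The library kit does not mark strand, so reads from a gene and an overlapping gene on the other strand cannot be told apart. In GENCODE release 29, 571 exonic bases of ERBB2 are shared with MIEN1 and 194 with PGAP3, both on the opposite strand. These genes had log2 fold changes of -0.04 and -0.05, and their groups overlapped. GRB7, an adaptor protein gene that neighbours ERBB2 and is often amplified with it in cancers, had 37.8 ± 2.05 CPM in control cells and 26.5 ± 2.61 CPM in RAC3 cells (SD, n = 3 per group). It had a log2 fold change of -0.52, and STARD3, another neighbour of ERBB2, had -0.18. These neighbours were looked up after the values of ERBB2 had been seen. EGFR shares 186 exonic bases with EGFR-AS1, and ERBB3 shares 31 with AC034102.2, a protein-coding gene on the same strand. AREG and EREG share none with another gene.

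Levels of different genes were compared per length, as the FPKM values of the authors. In control cells ERBB3 was highest, with 57.4 to 61.4 FPKM, followed by AREG with 34.2 to 40.4 FPKM. EGFR (26.5 to 29.3 FPKM) and ERBB2 (27.4 to 28.2 FPKM) came next and did not differ beyond their spread. EREG followed with 6.24 to 6.56 FPKM, and ERBB4 (1.45 to 3.16 FPKM), HBEGF (1.14 to 1.62 FPKM) and BTC (0.682 to 1.79 FPKM) overlapped with each other. TGFA was last, at 0.163 FPKM or less.
In the RAC3 samples this order differed at 3 places. AREG, with 55.2 to 57.9 FPKM, overlapped with ERBB3 at the top (49.2 to 56.7 FPKM). ERBB2, with 19.0 to 20.6 FPKM, no longer overlapped with EGFR (28.7 to 30.8 FPKM). HBEGF (1.71 to 1.93 FPKM) no longer overlapped with BTC (1.38 to 1.63 FPKM), while ERBB4 (1.51 to 2.49 FPKM) overlapped with both. The distance of EGFR from ERBB2 depends on the length used: the FPKM values imply 9652 to 9905 bases for EGFR and 3679 to 4135 bases for ERBB2. With CPM per kb of annotated exons, EGFR held 34.4% of the receptor level and ERBB2 15.8% in control cells. For ERBB4 the implied length ranged from 5493 to 12092 bases between samples, so its FPKM was 3.16 in control 1 and 1.45 in control 3, where its CPM was 17.8 and 17.7.

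AREG made up most of the ligand transcripts in both groups. Summed over the 5 ligands, the level was 43.0, 43.6 and 50.04 FPKM in control cells and 71.8, 73.3 and 70.5 FPKM in RAC3 cells, so each RAC3 sample lay above each control. AREG held 79.8 ± 0.840% of this sum in control cells and 79.1 ± 0.898% in RAC3 cells (SD, n = 3 per group). EREG held 14.2 ± 0.972% and 16.2 ± 0.977%, and RAC3 sample 1 lay 0.180 percentage points above control 1, the nearest pair. HBEGF, BTC and TGFA shared the rest. The 4 receptors summed to 121.2, 119.9 and 113.1 FPKM in control cells and 108.9, 99.98 and 103.3 FPKM in RAC3 cells. ERBB3 held 50.8 ± 0.456% of the receptor sum in control cells and 50.4 ± 1.53% in RAC3 cells. As CPM per kb of annotated exons its share was 47.7 ± 0.879% and 44.8 ± 0.287% (SD, n = 3 per group), and on that scale the groups did not overlap. In FPKM, the share of EGFR was 23.9 ± 0.533% and 28.6 ± 0.246%, and that of ERBB2 was 23.6 ± 0.871% and 19.0 ± 1.55% (SD, n = 3 per group).

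**Figure D3:**
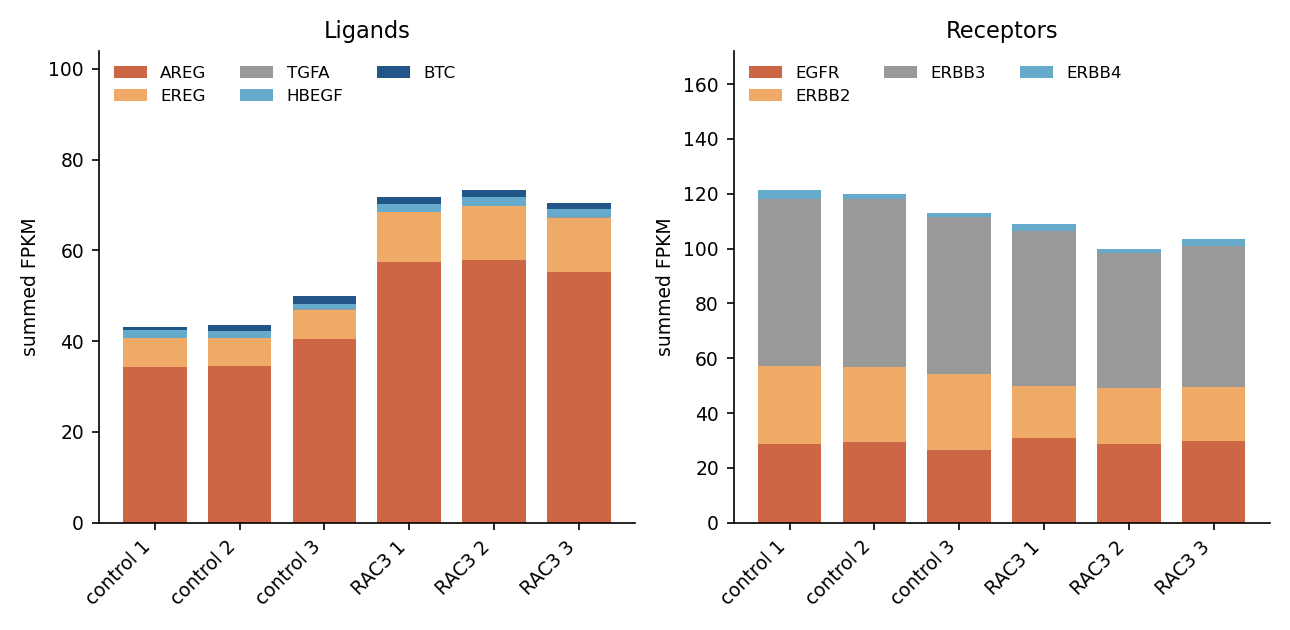
FPKM of the 5 ligands (left) and the 4 receptors (right), stacked for each sample, from the authors' values. The ligand bars of RAC3 cells reach 70.5 to 73.3 FPKM against 43.0 to 50.04 FPKM in control cells, with AREG as the largest block in every bar.

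Other genes of the pathway were taken from lists written from general knowledge. Of the 6 other EGF family ligands, NRG1 passed the filter on low counts, with 28 to 39 counts in control cells, 30 to 41 in RAC3 cells and a log2 fold change of -0.04 (SE 0.28, adjusted p = 0.932 in the edgeR test). The remaining 5 had between 0 and 19 counts summed over the 3 samples of a group, EGF itself 14 in control cells and 19 in RAC3 cells. Among 10 tested genes of ligand shedding and trafficking, none was past the thresholds of the study, where 4.68% of all genes tested were called. At an adjusted p-value below 0.05, where 28.5% of all genes tested were called, 1 gene of this list was higher. This was ADAM10, a protease that releases EGF and BTC, with 132.7 CPM in control cells and 147.6 CPM in RAC3 cells (log2 fold change 0.15, SE 0.0527, adjusted p = 0.0354 in the edgeR test). With the GC trend removed the log2 fold change of ADAM10 was -5e-04 (adjusted p = 0.997 in the edgeR test). In that fit 2 genes of the list were higher and 1 lower at an adjusted p-value below 0.05. Of all 12863 genes in it, 1273 were higher and 1411 lower. ADAM17, the main protease for AREG, EREG, TGFA and HBEGF, had a log2 fold change of 0.08 (adjusted p = 0.515 in the edgeR test).

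Among 24 tested adaptors and proximal effectors, 1 was lower past the thresholds of the study and none higher, against 2.99% and 1.68% of all genes tested. It was SHC2, an adaptor of the SHC family, with 64.1 CPM in control cells and 42.3 CPM in RAC3 cells (log2 fold change -0.59, SE 0.0654, adjusted p = 2.47e-06 in the edgeR test). SHC2 fell short of the fold threshold without control 1, at -0.55, without RAC3 sample 3, at -0.56, with scaling by library size alone, at -0.54, and with the GC trend removed, at -0.34. At an adjusted p-value below 0.05, 3 genes of this list were higher and 9 lower, where 28.5% of all genes tested were called. With the GC trend removed 2 were higher and 4 lower, where 1273 of 12863 genes were higher and 1411 lower. SOS1, the exchange factor that loads RAS with GTP, and PIK3CA, a catalytic subunit of PI3K, rose by 0.56 and 0.34 on the log2 scale (adjusted p = 5.39e-06 and 0.0101 in the edgeR test). Besides SHC2, GRB7 and the docking protein gene GAB2 fell by 0.52 and 0.49 on the log2 scale, and PIK3R2, a regulatory subunit of PI3K, fell by 0.28 (adjusted p = 0.000114, 0.0069 and 0.000137 in the edgeR test). With the GC trend removed, PIK3CA had 0.16 and PIK3R2 -0.07 on the log2 scale, and neither passed the test (adjusted p = 0.232 and 0.234 in the edgeR test). SOS1, GRB7 and GAB2 had 0.40, -0.36 and -0.39 in that fit (adjusted p = 4.73e-05, 0.00144 and 0.0244 in the edgeR test). The list's median log2 fold change was -0.11.

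Among 20 tested inhibitors of the receptors and genes of their turnover, none was past the thresholds, where 4.68% of all genes tested were called. At an adjusted p-value below 0.05, 5 were higher and 4 lower, where 28.5% of all genes tested were called, with a median log2 fold change of 0.06 over the list. SOCS4, a suppressor of cytokine signalling known to act on EGFR, had the smallest p of the list and rose from 36.1 to 44.3 CPM (log2 fold change 0.29, SE 0.0674, adjusted p = 0.00291 in the edgeR test). With the GC trend removed its log2 fold change was 0.11 (adjusted p = 0.205 in the edgeR test). In that fit 3 genes of the list were higher and 4 lower at an adjusted p-value below 0.05. Of all 12863 genes in it, 1273 were higher and 1411 lower. CBL, the ubiquitin ligase that sends EGFR to degradation, fell by 0.22 on the log2 scale (adjusted p = 0.0164 in the edgeR test). It had -0.27 with the GC trend removed (adjusted p = 0.00276 in the edgeR test). ERRFI1, a feedback inhibitor of the EGFR kinase, had a log2 fold change of 0.07 (adjusted p = 0.381 in the edgeR test).

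The 10 genes of the MAPK pathway activity score, a set of transcripts that ERK signalling induces, moved in both directions. Of the 9 tested, none was past the thresholds of the study, where 4.68% of all genes tested were called. At an adjusted p-value below 0.05, 2 were higher and 4 lower, where 28.5% of all genes tested were called. The list's median log2 fold change was -0.19. CCND1, the cyclin D1 gene, fell from 431.1 to 301.5 CPM (log2 fold change -0.52, SE 0.0428, adjusted p = 7.07e-08 in the edgeR test), and ETV4, an ETS factor, fell by 0.48 on the log2 scale (adjusted p = 6.89e-06 in the same test). EPHA2 and SPRY4 also fell, by 0.35 and 0.25 on the log2 scale (adjusted p = 3.21e-05 and 0.00453 in the edgeR test). PHLDA1 and DUSP4, a phosphatase of ERK, rose by 0.54 and 0.23 on the log2 scale (adjusted p = 3.05e-05 and 0.00111 in the edgeR test). With the GC trend removed, 2 of the 9 were higher and 5 lower at an adjusted p-value below 0.05, where 1273 of 12863 genes were higher and 1411 lower. In that fit CCND1, ETV4, PHLDA1 and DUSP4 had -0.49, -0.31, 0.48 and 0.27 on the log2 scale.
CREB is the family of factors known to bind the TGACGTCA element. The list of CREB and cAMP response genes also holds CREB1 and CRTC2, genes of the CREB machinery itself rather than response genes. Among its 13 tested genes, NR4A1 was lower past the thresholds and no gene was higher. Of all genes tested, 2.99% were lower and 1.68% higher. NR4A1, a nuclear receptor and immediate early gene, had 9.98 CPM in control cells and 5.94 CPM in RAC3 cells (log2 fold change -0.74, SE 0.158, adjusted p = 0.00168 in the edgeR test), and -0.58 with the GC trend removed, just inside the fold threshold. At an adjusted p-value below 0.05, 2 genes of this list were higher and 2 lower, where 28.5% of all genes tested were called. ATF3 rose by 0.40 and CREB1 by 0.20 on the log2 scale. The lower genes were NR4A1 and CRTC2, the latter at -0.18 (adjusted p = 0.0433 in the edgeR test). With the GC trend removed CREB1 had 0.03 and ATF3 0.37 on the log2 scale (adjusted p = 0.803 and 0.00196 in the edgeR test). In that fit 2 genes of the list were higher and 2 lower at an adjusted p-value below 0.05. Of all 12863 genes in it, 1273 were higher and 1411 lower. Genes of the pathway lists other than NRG1, ADAM10, SHC2, SOCS4, CCND1 and NR4A1 were picked for naming after their values had been seen.

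**Figure D4:**
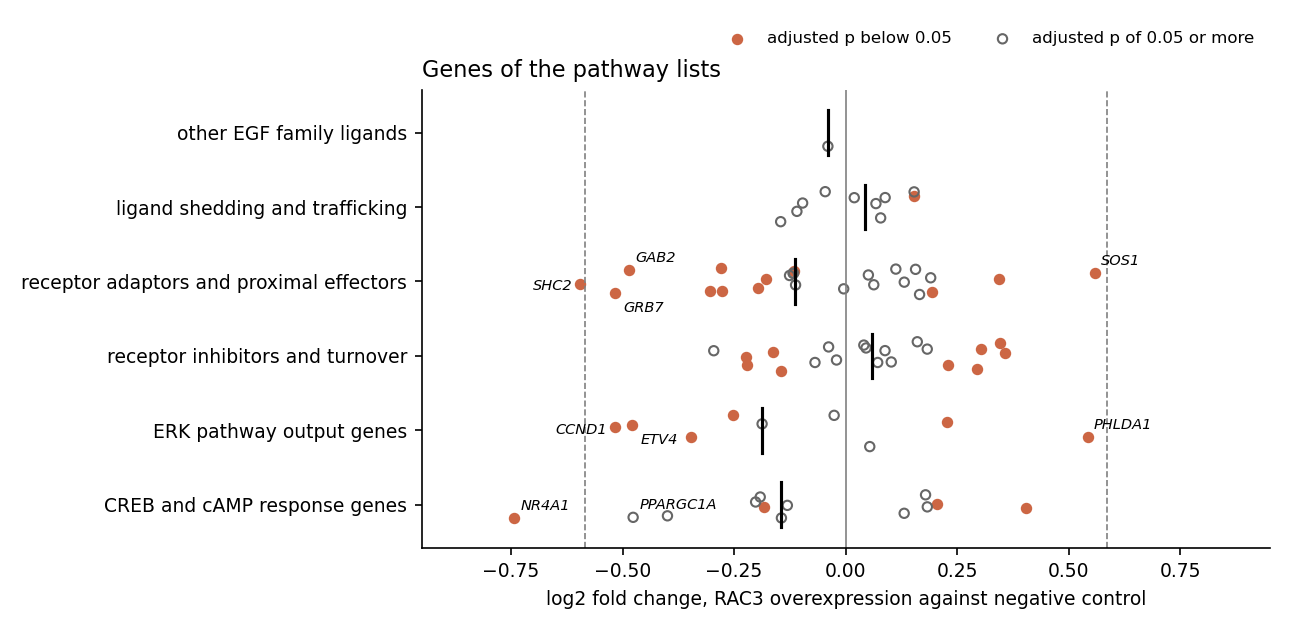
Log2 fold change of each tested gene in the 6 pathway lists, filled where the adjusted p-value in the edgeR test was below 0.05, with a black bar at the median of the list. Dashed lines mark a fold change of 1.5, which SHC2 and NR4A1 pass downwards and no gene passes upwards.

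The surroundings of AREG and EREG on chromosome 4 hold a row of CXC chemokine genes. Of 17 genes of the table whose start lies within 1 Mb of the AREG start, 12 were tested, and 4 of these were higher past the thresholds of the study and none lower, where 1.68% of all genes tested were higher and 2.99% lower. The window was built around AREG and EREG, which are 2 of the 4 and were chosen on this comparison. The other two were RASSF6 and CXCL5. RASSF6, a RAS association domain gene at -824.5 kb from AREG, had 36, 40 and 38 counts in control cells and 67, 60 and 60 in RAC3 cells (log2 fold change 0.67, SE 0.229, adjusted p = 0.035 in the edgeR test). Without control 3 its log2 fold change was 0.56, under the fold threshold, as it was with the GC trend removed, at 0.51 (adjusted p = 0.13 in the edgeR test). CXCL5, a neutrophil chemokine gene at -446.4 kb from AREG, had a log2 fold change of 0.65, and 0.49 with the GC trend removed. CXCL1, which lies between RASSF6 and CXCL5, fell by 0.21 on the log2 scale (adjusted p = 0.00843 in the edgeR test), and BTC and PARM1, beyond AREG, had log2 fold changes of -0.10 and -0.12. EPGN, the EGF family ligand gene nearest to EREG, had 8 counts in control cells and 11 in RAC3 cells. Of the 12 tested genes, 8 had a log2 fold change above 0 and 4 below, with a median of 0.34. At an adjusted p-value below 0.05, 6 were higher and 1 lower, where 28.5% of all genes tested were called, 1717 of them higher and 1974 lower. AREG and EREG are among the 6 and enter the median. The chemokine genes CXCL3 and CXCL8 rose by 0.47 and 0.28 on the log2 scale (adjusted p = 0.0214 and 0.0151 in the edgeR test). With the GC trend removed CXCL8 had 0.08 (adjusted p = 0.544 in the edgeR test). CXCL3 and CXCL1 had 0.50 and -0.26 in that fit (adjusted p = 0.0176 and 0.00127 in the edgeR test). CXCL2 and CXCL6 had log2 fold changes of 0.34 and 0.33 (adjusted p = 0.104 and 0.237 in the edgeR test). CXCL1, CXCL2, CXCL3, CXCL6, CXCL8 and PARM1 were picked for naming after their values had been seen.

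**Figure D5:**
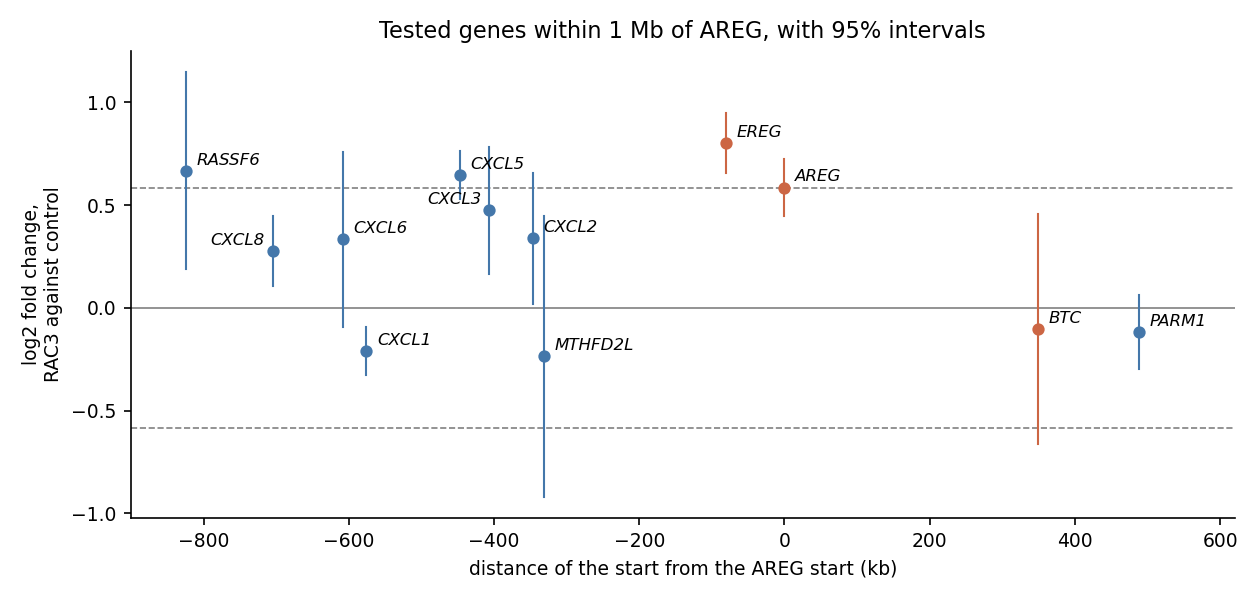
Log2 fold change with 95% interval (vertical axis) of the 12 tested genes within 1 Mb of AREG against the distance of their starts from the AREG start in kb, with the family members in orange. EREG, AREG, CXCL5 and RASSF6 lie at or above the upper dashed line, a fold change of 1.5, and CXCL1, MTHFD2L, BTC and PARM1 lie below 0.

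Genes with a profile like that of AREG or EREG were searched among 11220 genes whose mean count was 50 or more. Likeness was the root mean square difference of the log2 level relative to the mean of control cells, over the 6 samples. The gene nearest to EREG was NNMT, the nicotinamide N-methyltransferase gene, with a difference of 0.0274, followed by CEBPD (0.0663) and NFKBIZ (0.0844). EREG stood at 0.02, -0.05 and 0.02 in control cells and at 0.69, 0.83 and 0.85 in RAC3 cells, and NNMT at 0.00, -0.02 and 0.03 and at 0.70, 0.78 and 0.82. The gene nearest to AREG was CA4, a carbonic anhydrase gene, with a difference of 0.049, and RETREG1 was also among the nearest (0.0609). With the GC trend removed, the log2 fold changes were 0.63 for EREG and 0.91 for NNMT, and 0.53 for AREG and 0.80 for CA4, so these pairs lay farther apart than in the profiles above. The likeness rests on 6 samples in 2 groups and is a description only.

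The liver identity of the cells was checked by its markers, which were all detected, with ALB the highest. The summed level of 10 hepatocyte and liver cancer markers was 6551 to 6641 CPM in control cells and 5964 to 6524 CPM in RAC3 cells. Of the other cell types, 5 fibroblast markers summed to 230.8 to 247.5 CPM and 271.1 to 284.0 CPM, mostly LUM, 4 immune markers, mostly CD14, to 35.9 to 44.1 CPM and 30.0 to 33.3 CPM, and 4 endothelial markers to 2.53 to 3.15 CPM and 2.70 to 3.76 CPM. The hepatocyte and liver cancer sum and the immune sum were lower and the fibroblast sum higher in every RAC3 sample than in any control. Within the liver and fibroblast lists the markers did not share a direction. Of 10 liver markers tested, 5 had a log2 fold change above 0 and 5 below, with TF at -0.56 (1173.7 to 795.2 CPM). Of 4 fibroblast markers tested, 2 were above 0 and 2 below, and CD14 was the 1 immune marker tested. The part of these sums in the values of AREG, EREG, ERBB2 and ERBB3 was not tested.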

How the data were processed

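Polyadenylated RNA of 6 Huh-7 samples was sequenced on an Illumina NovaSeq instrument. The authors deposited 1 table with unnormalized read counts and FPKM for every sample. It also holds the authors' FPKM mean for either group, not used here. The submitters' processing notes name Bowtie2 2.2.8, HISAT2, StringTie 1.3.1 and DESeq2 without a role. The genome build, annotation and counting settings are not given in the sources used here. Samples were grouped by title.

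Tests were run on the counts with edgeR 4.0.16 under R 4.3.3: filterByExpr (12941 genes kept, 8 of the 9 members), TMM scaling, quasi-likelihood F test, two-sided, Benjamini-Hochberg adjustment over all genes tested, no covariate. Intervals are at 95%. The steps were tested on simulated data. Replicates differed by more than sampling noise (biological coefficient of variation 0.0533). Same-numbered samples had deviations with correlations of -0.0936, -0.0492 and -0.0234 over 11221 genes, so the numbers do not pair them. Profiles used a pseudocount of 0.5 CPM. A count of 0 allows up to 3 counts, counting error only.

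The members, lists and alternatives were chosen with earlier results of these data known. Named genes were the members, RAC3, list genes and genes near AREG past the thresholds (at most 5 per direction), the gene of smallest p in a list with none, and the 3 profiles nearest to AREG and to EREG, of which 1 is not reported here. Alternatives were DESeq2 1.42.0 (its test and its size factors), scaling by upper quartile or by library size, limma-voom (limma 3.58.1), other filters, a replicate block, leaving out each sample, removal of the GC trend (lowess, span 0.3, 12863 genes with a value in GENCODE release 29) and other call rules. Positions were matched by Ensembl identifier (20113 of 20332).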

Additional observations from a re-analysis of the deposited data

How the results depend on the processing

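EREG kept its direction and its call in all 15 alternative fits, with log2 fold changes from 0.63 (GC trend removed) to 0.86 (library size alone), and AREG kept its direction, from 0.53 to 0.66, but was past the fold threshold in 8 of the 15. The number of members called higher was 2, and it was 1 with only genes without any count removed, 1 with at least 10 counts in every sample, 1 with the GC trend removed and between 1 and 2 when each sample was left out, each time by the loss of AREG, which lies on the threshold. The number called lower was 0 in all of these fits and 2 at an adjusted p-value below 0.05 without a fold threshold, which drops the fold condition by construction. ERBB2 ranged from -0.48 to -0.32 and ERBB3 from -0.29 to -0.22. HBEGF stayed above 0, while BTC, EGFR and ERBB4 took both signs. Of 77 pathway genes tested, 0 were called higher and 2 lower, where 1.68% of all genes tested were higher and 2.99% lower. With library size alone the pathway counts were 2 and 1, and with only genes without any count removed 1 and 2. With the GC trend removed they were 0 and 0. Over all genes these fits gave 296 and 315 of 12941, 301 and 466 of 16572, and 196 and 261 of 12863. At an adjusted p-value below 0.05 without a fold threshold 13 and 19 pathway genes were called, against 1717 and 1974 of all 12941 genes tested. When each sample was left out the pathway counts were 0 to 1 and 1 to 3. Those over all genes were 206 to 232 and 330 to 434. With a replicate block, 2 members were higher and 0 lower, and of the pathway genes 0 were higher and 2 lower, so it changed no call of a member. Causes were not tested. The median over all genes was 0.06 on the log2 scale under library size alone. With CPM per annotated length in place of FPKM, EGFR held 34.4% and ERBB2 15.8% of the receptor sum in control cells. TGFA and the scarce ligands are limited by depth.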
